A study of Mus musculus with 60 samples.

Results

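The genes described here encode the scaffolds and signalling proteins of the postsynaptic density, the protein layer under the membrane of excitatory synapses. They are the 34 genes given by symbol from the Dlg, Dlgap, Shank, Homer, Camk2, Nlgn and Lrrtm families and from their partner proteins, found in the deposited table through GENCODE release M21. The table holds 18088 genes, 17810 of which were tested, and 34 of the 34 passed the filter on low values. RNA was measured in the dissected prefrontal cortex of C57BL/6J mice at postnatal day 25. Wild-type (WT) mice were compared with Grin2b+/C456Y heterozygotes (Het), which carry 1 mutant copy of Grin2b, a gene encoding an NMDA receptor subunit, GluN2B. Pups of both genotypes were exposed from day 3 to day 24, through the milk of the mother, to vehicle, to fluoxetine (a selective serotonin reuptake inhibitor) or to lithium (a mood stabiliser). This gives 6 genotype-by-drug groups of 10 libraries, 5 from females and 5 from males in each, 60 in all. The labels number the replicates and do not tie them to animals or litters, so the p-values measure the spread between these libraries. The drugs reached the pups through milk, and no dose is stated in the labels.

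The postsynaptic density holds glutamate receptors in place and couples them to kinases, phosphatases and the actin skeleton. Membrane-associated guanylate kinases of the Dlg family bind the receptor tails, Dlgap proteins bind the Dlg proteins, and Shank and Homer proteins form the layer beneath, which reaches the metabotropic receptors and actin. CaMKII, which is activated by calcium entering through NMDA receptors, is one of the most abundant proteins of this structure, and neuroligins and Lrrtm proteins bind partner proteins across the synaptic cleft.

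Recovered depth was 23901635 to 37769417 reads per library. One set of libraries stood apart. In 16 pseudogenes that differed by over 2 on the log2 scale between Het and WT mice under fluoxetine, the mean log2 level was 1.78 to 2.6 in 9 of the 10 Het fluoxetine libraries and 3.15 in WT vehicle female replicate 2. The other 50 libraries lay between 4.6 and 7.14, among them Het fluoxetine male replicate 1 at 5.65. Counts of calls that rest on the Het fluoxetine group are given below also with a model term for these 10 libraries, called the library term, which was thus defined from 1 of the contrasts it is used in. The largest residuals were those of Het vehicle male replicate 5 and of replicate 5 of each sex in WT lithium. The label of the tissue was set against marker lists: all 8 pan-neuronal and all 8 excitatory neuron markers were detected. So were markers of striatal neurons, whose summed level reached 20883 in 1 WT fluoxetine library and 29648 in 1 WT lithium library against group medians of 5022 to 6033. All 8 markers of olfactory bulb and immature neurons were also detected, with group medians of 9657 to 14661. Their summed level reached 31121 in Het fluoxetine, 30784 in WT vehicle and 29666 in Het vehicle.

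Per kilobase of transcript, the levels of the members spanned a wide range. In WT vehicle mice Camk2a, the alpha subunit of CaMKII, stood highest at 19500 ± 2300 normalised read counts per kilobase (SD, n = 10). Next came Agap2, an Arf GTPase-activating protein, at 6700 ± 605, the CaMKII beta subunit gene Camk2b at 5870 ± 340, the calcineurin catalytic subunit gene Ppp3ca at 5000 ± 654 and Dlg4, the main membrane-associated guanylate kinase of mature excitatory synapses, at 4910 ± 347. Of these, Ppp3ca and Dlg4 differed by less than the SD of either. Homer3 was lowest at 93.9 ± 14.8, below Grip1 at 165 ± 21.1 and Nlgn1 at 181 ± 16.8, which overlapped each other. All later values are normalised read counts, not per length, and are compared only within a gene.

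Many members belong to families whose proteins share stretches of identical residues while their RNAs differ in sequence. The stretches below are shown because the 2 genes of each pair were called in opposite directions in Het against WT mice on fluoxetine. For each pair the stretch was chosen as the 30 aligned codons with the most identical residues. By that choice, differences within a stretch lie mostly in bases that leave the protein unchanged. The whole proteins are less alike, as given below. Each stretch is 90 bases (30 codons) of coding sequence from the GENCODE M21 transcripts (GRCm38), 5′ to 3′ on the coding strand. Capitals mark the bases at which the pair differs. Nlgn1 lies on chromosome 3 (25426215 to 26332460, minus strand) and Nlgn2 on chromosome 11 (69823122 to 69837784, minus strand). Camk2d lies on chromosome 3 (126596302 to 126846326, plus strand) and Camk2b on chromosome 11 (5969644 to 6066362, minus strand). Dlg1 lies on chromosome 16 (31663443 to 31875129, plus strand) and Dlg4 on chromosome 11 (70016942 to 70047522, plus strand). Dlgap1 lies on chromosome 17 (69969073 to 70821413, plus strand) and Dlgap3 on chromosome 4 (127169204 to 127237022, plus strand). Base numbers count from 1 at the start codon.
Nlgn1, coding bases 1303 to 1392: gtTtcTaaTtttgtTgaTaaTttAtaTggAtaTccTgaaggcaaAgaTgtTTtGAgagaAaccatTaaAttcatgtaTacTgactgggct
Nlgn2, coding bases 1228 to 1317: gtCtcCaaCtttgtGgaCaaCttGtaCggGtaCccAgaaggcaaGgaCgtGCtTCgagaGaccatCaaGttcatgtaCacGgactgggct
Camk2d, coding bases 115 to 204: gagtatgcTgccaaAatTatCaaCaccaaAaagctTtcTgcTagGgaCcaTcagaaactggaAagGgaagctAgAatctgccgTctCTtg
Camk2b, coding bases 115 to 204: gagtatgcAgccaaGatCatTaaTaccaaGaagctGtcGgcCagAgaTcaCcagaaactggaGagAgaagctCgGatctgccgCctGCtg
Dlg1, coding bases 661 to 750: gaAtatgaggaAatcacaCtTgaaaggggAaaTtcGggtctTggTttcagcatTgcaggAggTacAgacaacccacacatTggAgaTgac
Dlg4, coding bases 313 to 402: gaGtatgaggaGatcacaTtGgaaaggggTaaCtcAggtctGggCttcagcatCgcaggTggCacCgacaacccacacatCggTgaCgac
Dlgap1, coding bases 1009 to 1098: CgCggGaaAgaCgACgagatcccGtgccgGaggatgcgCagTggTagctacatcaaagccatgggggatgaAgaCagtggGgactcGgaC
Dlgap3, coding bases 1135 to 1224: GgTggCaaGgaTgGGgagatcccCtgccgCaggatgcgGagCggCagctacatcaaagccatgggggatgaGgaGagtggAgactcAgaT
The neuroligin stretches encode 30 identical residues of 30 yet differ at 22 bases, 20 of them at codon position 3, and hold 31.1% G and C in Nlgn1 against 52.2% in Nlgn2. The CaMKII stretches also encode 30 identical residues and differ at 19 bases (17 at position 3), with 44.4% G and C in Camk2d and 52.2% in Camk2b. In the Dlg pair 16 bases differ (15 at position 3) with 30 identical residues, and the G and C content is 45.6% in Dlg1 and 55.6% in Dlg4. The Dlgap pair differs from these: its stretches encode 27 identical residues, differ at 17 bases (15 at position 3) and both hold 61.1% G and C. Over the whole proteins the identity is 69.4% of 790 aligned residues for the neuroligins, 86.7% of 512 for the CaMKII pair, 74.3% of 758 for the Dlg pair and 48.6% of 881 for the Dlgap pair. Over the whole longest transcript, G and C make up 38.9% in Nlgn1 and 60.7% in Nlgn2, and 43.9% in Camk2d and 53.9% in Camk2b. They make up 43.8% in Dlg1 and 46.8% in Dlg4, and 50.9% in Dlgap1 and 63.9% in Dlgap3. Whether base composition has a part in the direction of the calls was not tested.

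The first comparison asks whether the C456Y allele alone changes the RNA of these genes. In vehicle, 0 of the 34 members were called between Het and WT mice, where called means a Benjamini-Hochberg adjusted p below 0.05 in limma over all genes tested (percent called of all genes, 0.59%). At an unadjusted p below 0.05 the count was also 0, and edgeR and DESeq2 on the recovered reads called 0. The folds of the members ran from -0.13 to 0.11 on the log2 scale, with a median of 0.0045. Pick1, a scaffold that binds AMPA receptor tails, had the smallest p, with a log2 fold of 0.07 (SE 0.04, 95% interval -0.0048 to 0.14, adjusted p = 0.557). Shank1 followed at 0.11 (SE 0.07, adjusted p = 0.617) and Lrrtm2 at 0.11 (SE 0.07, adjusted p = 0.646). Grin2b itself, the mutated gene, was at 0.09 (SE 0.06, adjusted p = 0.709), and as its allele changes an amino acid this level does not check the genotype. In later comparisons Grin2b was called higher in Het than in WT mice on fluoxetine (0.24, adjusted p = 0.00198). Fluoxetine in Het mice (0.32, adjusted p = 0.000105) and lithium in WT mice (0.19, adjusted p = 0.0329) also raised it. It was not called in the other comparisons or in the interactions with a drug. Bulk tissue was measured, so fewer cells of a type and less RNA per cell cannot be told apart in this or any later comparison.

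Nearly all calls among the members came from comparisons that include the Het fluoxetine group. Against WT mice on fluoxetine, 23 members were called, 10 higher and 13 lower in Het mice, which is 67.6% of the members beside 39.5% of all genes tested (19.6% higher, 19.9% lower). Against Het mice on vehicle, 25 were called, 12 higher and 13 lower, which is 73.5% of the members beside 39% of all genes tested (19.1% higher, 19.9% lower). The background was thus high in both comparisons, and no test was made of the members' share against it. Both comparisons use the same 10 Het fluoxetine libraries, so their values are set side by side and do not support each other. The median log2 fold of the members was -0.00093 and -0.0035, against -0.012 and 0.0048 for all genes.

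Among the membrane-associated guanylate kinases, Dlg1, Dlg2 and Dlg3 rose in fluoxetine-treated Het mice against vehicle and Dlg4 fell. Dlg1, a scaffold also found along the receptor delivery route, was at 4750 to 5729 in Het fluoxetine libraries (median 5269), against 4499 to 5056 (median 4771) in Het vehicle and 4494 to 4981 (median 4712) in WT fluoxetine. Most Het fluoxetine libraries were above both other groups, which they overlapped at the lower end. The log2 fold of Dlg1 was 0.13 (SE 0.04, adjusted p = 0.00249) against Het vehicle and 0.16 (SE 0.04, adjusted p = 0.000482) against WT fluoxetine.
Dlg4 was at 24795 to 29827 (median 27166) in Het fluoxetine, 26390 to 38136 (median 30442) in Het vehicle and 27861 to 34369 (median 31919) in WT fluoxetine. All 10 Het fluoxetine libraries were below the mean of their sex in either other group, though the ranges overlapped. Its log2 fold was -0.19 (SE 0.06, adjusted p = 0.00538) against Het vehicle and -0.22 (SE 0.06, adjusted p = 0.00157) against WT fluoxetine. Dlg2 was called in both comparisons, at 0.11 (adjusted p = 0.0463) against Het vehicle and 0.18 (adjusted p = 0.00129) against WT fluoxetine. Its call against Het vehicle held in 9 of the 20 fits that each left out a library, and that against WT fluoxetine in 20 of 20. Dlg3 was called only in the drug comparison at 0.10 (adjusted p = 0.0108), against 0.07 (adjusted p = 0.0869) between genotypes.

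The Dlgap linkers held both directions, with Dlgap1 higher and Dlgap3 and Dlgap4 lower. Dlgap4, which lies on chromosome 2 (156613705 to 156764363), gave one of the clearest separations. It was at 7521 to 8488 (median 7972) in Het fluoxetine libraries, at 8571 to 9754 (median 9241) in Het vehicle and at 8712 to 9537 (median 9384) in WT fluoxetine. No Het fluoxetine library reached the lowest library of either other group. The log2 fold was -0.20 (SE 0.04, adjusted p = 8.58e-05) against Het vehicle and -0.22 (SE 0.04, adjusted p = 3.95e-05) against WT fluoxetine. Such complete separation of 10 from 10 libraries was seen for 2 members in the drug comparison (Dlgap4 and Shank1) and for 2 in the genotype comparison (Dlgap4 and Lrrc7), where 4.12% and 5.09% of all genes showed it.
Dlgap3, a linker best known from striatal and cortical synapses, ranged from 8914 to 11033 (median 10159) in Het fluoxetine, 9783 to 16726 (median 12468) in Het vehicle and 10796 to 15301 (median 13557) in WT fluoxetine. Its fold was the largest fall of any member between genotypes, -0.42 (SE 0.09, adjusted p = 0.000414), and was -0.31 (SE 0.09, adjusted p = 0.00699) against Het vehicle. Dlgap1 moved the other way, from 13981 to 14901 (median 14524) in Het vehicle and 12974 to 15245 (median 14515) in WT fluoxetine to 14895 to 17733 (median 16145) in Het fluoxetine. Its log2 fold was 0.15 (SE 0.03) in each comparison, with an adjusted p of 0.000274 against Het vehicle and 0.000279 against WT fluoxetine. Dlgap2 was called only against Het vehicle, at 0.19 (adjusted p = 0.0116), where the difference was 0.38 in females and -0.0086 in males (the difference between the sexes was not called).

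**Figure D1:**
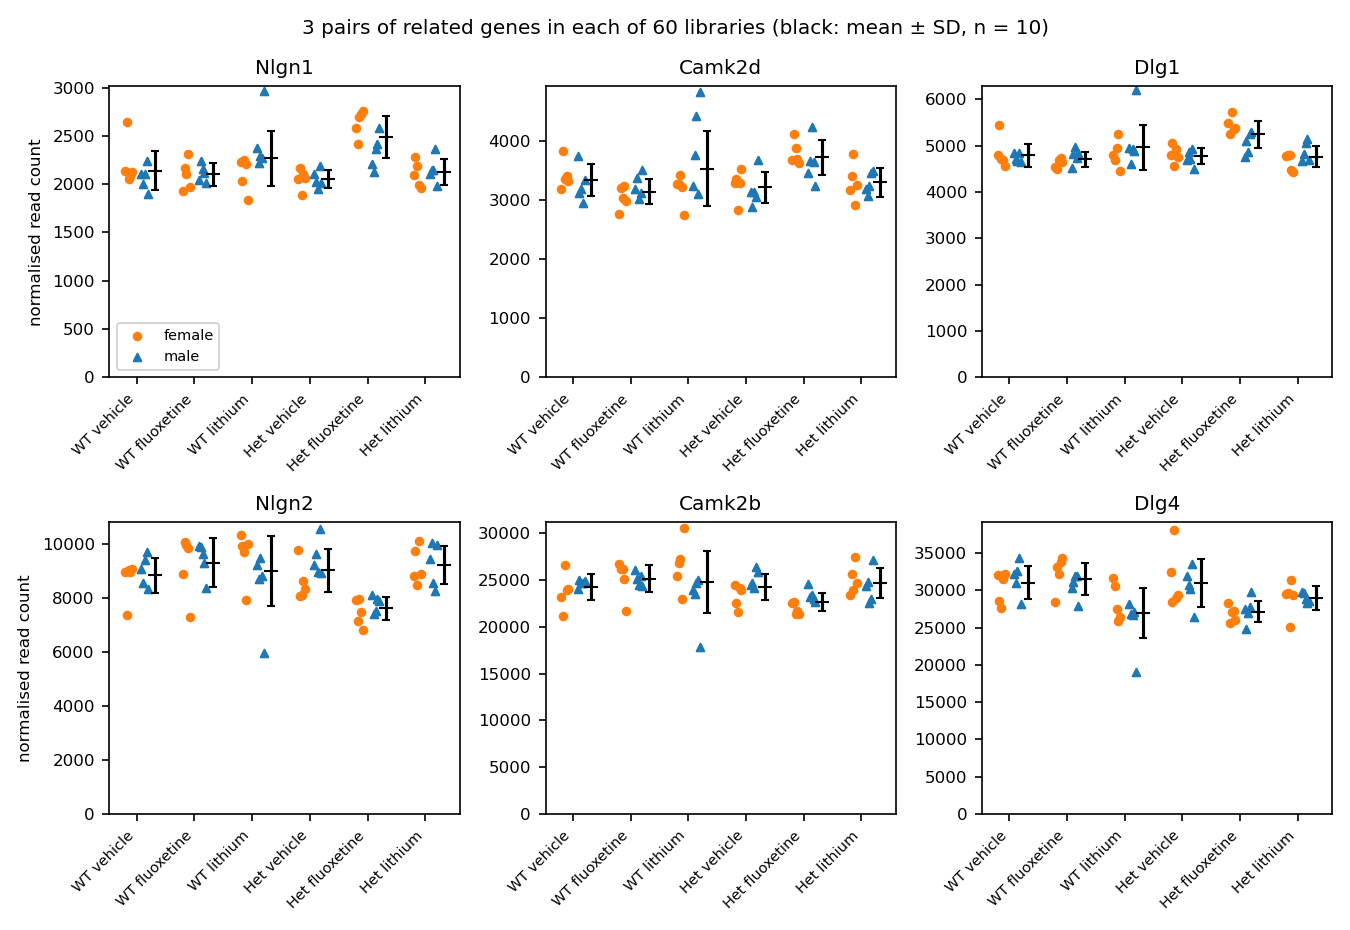
Normalised read counts (vertical axes, from 0) of 3 pairs of related genes in all 60 libraries, with females as orange circles, males as blue triangles and the mean ± SD of each group of 10 in black. In Het fluoxetine libraries the gene in the upper row (Nlgn1, Camk2d, Dlg1) has a higher mean and the gene in the lower row (Nlgn2, Camk2b, Dlg4) a lower mean than in Het vehicle, and WT lithium male replicate 5 lies farther out in the same directions.

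In the layer beneath, the calls among Shank1, Shank2, Shank3, Homer2 and Homer3 were falls. Of these 5 genes, 4 were called lower against Het vehicle and 3 against WT fluoxetine, and 0 were called higher. Shank1 was at 17174 to 19544 (median 18567) in Het fluoxetine, 19550 to 27275 (median 22629) in Het vehicle and 18651 to 25503 (median 22689) in WT fluoxetine. The Het fluoxetine range ends just below the Het vehicle range and overlaps that of WT fluoxetine. Its log2 fold was -0.30 (SE 0.07, adjusted p = 0.000409) against Het vehicle and -0.28 (SE 0.07, adjusted p = 0.000665) against WT fluoxetine. Shank3, whose loss in humans causes Phelan-McDermid syndrome, was at 6657 to 7895 in Het fluoxetine against 6821 to 11726 in Het vehicle. Its fold was -0.28 there (adjusted p = 0.00187) and -0.29 (adjusted p = 0.00151) against WT fluoxetine. Shank2 was called against Het vehicle, at -0.19 (adjusted p = 0.0102), and was at 0.0030 (95% interval -0.12 to 0.13) against WT fluoxetine. Homer3, at 134 to 221 in Het fluoxetine and 167 to 293 in Het vehicle, had folds of -0.36 and -0.40. Homer2, another Homer scaffold, was called in neither comparison (0.06, adjusted p = 0.562, and 0.16, adjusted p = 0.0799). Homer1, which is no member and is named here after its values were seen, was called higher in Het than in WT mice on fluoxetine, at 0.30 (SE 0.10, adjusted p = 0.0107). It was not called against Het vehicle, nor in either comparison with the library term. Between genotypes the Homer calls thus held both directions, with Homer3 lower and Homer1 higher. The longest transcripts of Homer3 and Homer1 hold 60.2% and 36.9% G and C.

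The kinase and phosphatase genes held both directions. Camk2a fell, with 67670 to 94203 (median 83113) in Het fluoxetine, 73424 to 138634 (median 100947) in Het vehicle and 84056 to 123313 (median 100530) in WT fluoxetine. The groups overlapped, and all 10 Het fluoxetine libraries were below the mean of their sex in both. Its log2 fold was -0.24 (adjusted p = 0.00783) against Het vehicle and -0.28 (adjusted p = 0.00206) against WT fluoxetine. The delta subunit gene Camk2d rose, with 3228 to 4228 (median 3665) in Het fluoxetine against 2831 to 3672 (median 3208) in Het vehicle and 2761 to 3504 (median 3154) in WT fluoxetine. Its folds were 0.21 (SE 0.06, adjusted p = 0.00329) and 0.24 (SE 0.06, adjusted p = 0.000803). Camk2b fell between genotypes, at -0.15 (SE 0.05, adjusted p = 0.0077), and was at -0.10 (adjusted p = 0.0917) against Het vehicle, while Camk2g, the gamma subunit gene, was called in neither. Ppp3ca rose against Het vehicle, by 0.19 (adjusted p = 0.00597), and was at 0.12 (adjusted p = 0.0802) against WT fluoxetine. Akap5, which anchors protein kinase A and calcineurin at the synapse, was called in both (0.14 and 0.24), the first with an adjusted p of 0.0456. Its call against Het vehicle held in 6 of the 20 fits that each left out a library. Its call against WT fluoxetine held in 20 of 20.

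The neuroligins Nlgn1 and Nlgn2 moved in opposite directions in both comparisons. Nlgn1, found mainly at excitatory synapses, was at 2126 to 2755 (median 2500) in Het fluoxetine, 1888 to 2184 (median 2059) in Het vehicle and 1928 to 2312 (median 2113) in WT fluoxetine. All Het fluoxetine libraries but male replicates 1 and 2 exceeded both other ranges. Its log2 fold against Het vehicle was 0.27 (SE 0.05, adjusted p = 1.34e-05), the smallest p of any member there, and 0.24 (SE 0.05, adjusted p = 9.56e-05) against WT fluoxetine.
Nlgn2, found mainly at inhibitory synapses and so outside the excitatory density, was at 6825 to 8107 (median 7695) in Het fluoxetine, 8088 to 10565 (median 8951) in Het vehicle and 7277 to 10058 (median 9740) in WT fluoxetine. Only the top of the Het fluoxetine range met the bottom of the Het vehicle range. The folds were -0.24 (SE 0.06, adjusted p = 0.00141) and -0.28 (SE 0.06, adjusted p = 0.000247). Nlgn3, which occurs at both kinds of synapse, was called only between genotypes, at 0.17 (adjusted p = 0.0412), and that call held in 9 of the 20 fits that left out 1 library. Lrrtm2, an adhesion protein of excitatory synapses, was higher in Het than in WT mice on fluoxetine by 0.35 (SE 0.07, adjusted p = 0.000116), with 1944 to 2634 against 1703 to 2049, and was at 0.11 (adjusted p = 0.245) against Het vehicle. Lrrtm1 fell against Het vehicle, by 0.22 on the log2 scale (adjusted p = 0.00611), and was at -0.13 (adjusted p = 0.0997) between genotypes. Lrrtm1 and Lrrtm2 lie inside Ctnna2 and Ctnna1 on the opposite strand, and the sources used here do not state if reads were counted by strand.

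Among the GTPase regulators Agap2 fell furthest, from 33286 to 46348 (median 38776) in Het vehicle and 34970 to 42864 (median 40183) in WT fluoxetine to 28507 to 35759 (median 31131) in Het fluoxetine. Its highest Het fluoxetine value was that of male replicate 1, and the other 4 males were at 31068 to 31558. The log2 fold was -0.30 (SE 0.07, adjusted p = 0.00039) against Het vehicle and -0.36 (SE 0.07, adjusted p = 5.95e-05) against WT fluoxetine. The X-linked Arf exchange factor gene Iqsec2 was called lower between genotypes, at -0.19 (adjusted p = 0.0155), and was at -0.09 (adjusted p = 0.307) against Het vehicle. The Rap GTPase-activating protein gene Sipa1l1 and the guanine nucleotide exchange factor genes Kalrn and Trio were called in neither comparison, with folds between -0.03 and 0.09.

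The adaptors also moved both ways. Cnksr2, a signalling scaffold encoded on the X chromosome, was at 6792 to 8891 (median 7871) in Het fluoxetine, 5700 to 6805 (median 6219) in Het vehicle and 5468 to 7046 (median 6447) in WT fluoxetine. The ranges met only at their ends. The log2 fold was 0.32 (SE 0.06, adjusted p = 2.94e-05) against Het vehicle, the largest rise of any member there, and 0.31 (SE 0.06, adjusted p = 6.02e-05) against WT fluoxetine.
Lrrc7, a binding partner of CaMKII, was at 2834 to 3715 (median 3046) in Het fluoxetine, 2557 to 2858 (median 2752) in Het vehicle and 2352 to 2771 (median 2542) in WT fluoxetine. It stood wholly above WT fluoxetine. The fold was 0.29 (SE 0.05, adjusted p = 8.45e-06) there and 0.20 (SE 0.05, adjusted p = 0.000586) against Het vehicle. Pick1 fell by 0.18 and 0.16 on the log2 scale (adjusted p = 0.000105 and 0.000332), with 1181 to 1377 in Het fluoxetine against 1301 to 1495 in Het vehicle and 1308 to 1526 in WT fluoxetine. Baiap2, which links Shank proteins to actin, was called lower in both (-0.20 and -0.19). Grip1, a scaffold with many PDZ domains that binds AMPA receptors, was called higher against Het vehicle only, at 0.25 (adjusted p = 0.0184).

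The direction of these differences went with the base composition of the transcripts. Of the 14 members whose longest transcript holds under 50% G and C, 9 were called higher and 1 lower in each of the 2 comparisons with Het fluoxetine, with median folds of 0.18 between genotypes and 0.14 for the drug. Of the 20 members at 50% or more, 12 were called lower in each, and 1 (between genotypes) or 3 (for the drug) higher, with medians of -0.18 and -0.20. All genes split the same way between genotypes: 35.4% of genes under 50% were called higher and 3.95% lower, against 1.6% higher and 38.2% lower among the others. For the drug in Het mice these shares were 32.3% higher and 5.66% lower, against 4.07% higher and 36.2% lower.
The 1 lower call in the first class was Dlg4, whose transcript holds 46.8% and whose coding sequence holds 56.8%. Members with a similar content in the coding sequence were called both ways for the drug. Dlgap1 (57.7%) and Dlgap2 (56.6%) were called higher, and Baiap2 (57.4%) and Camk2a (55.8%) lower. Over the 34 members, Pearson's r of fold with transcript GC content was -0.87 between genotypes and -0.81 for the drug (Spearman -0.87 and -0.81), given here as a description because the genes share libraries. Over 17799 genes the same r was -0.51 and -0.41. With the GC content of the coding sequence r was -0.86 and -0.83, whereas with transcript length it was 0.35 and 0.26 and with the log2 mean level -0.25 and -0.19. In the comparisons without Het fluoxetine libraries the members' r was 0.11 (genotype in vehicle), 0.58 (genotype in lithium), 0.43 (fluoxetine in WT), -0.47 (lithium in WT) and -0.35 (lithium in Het).

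**Figure D2:**
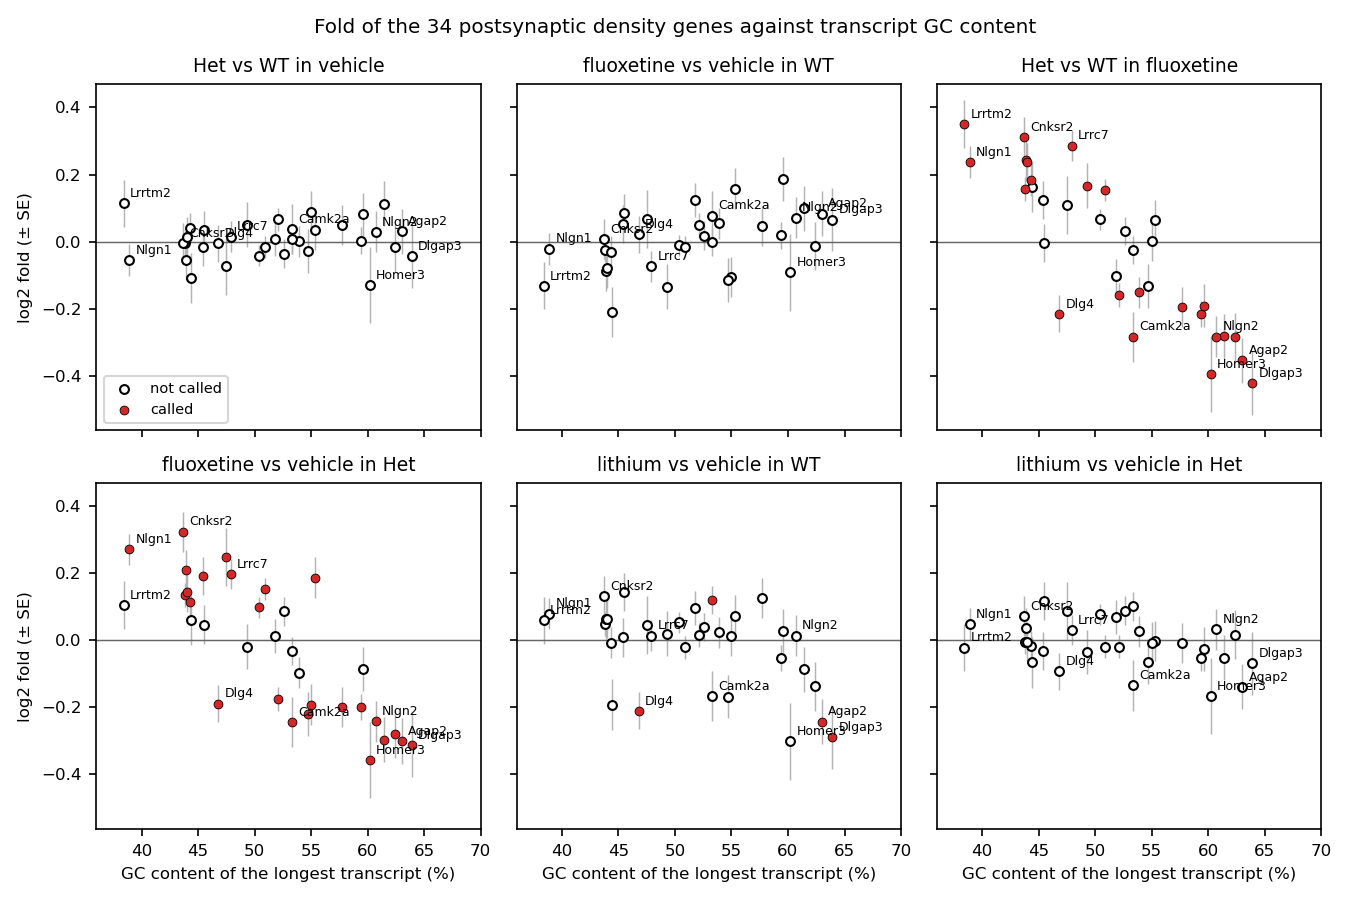
Log2 fold (± SE, vertical axes) of each of the 34 genes against the GC content of its longest transcript (horizontal axes, %) in 6 comparisons, with called genes in red and others open. In the 2 panels with Het fluoxetine libraries the called genes under 50% lie above 0 except Dlg4, and most called genes at 50% or more lie below 0.

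The same balance can be read within a library, as the mean log2 deviation (from the mean of all 60 libraries) of the 14 members under 50% minus that of the other 20. It was 0.0436 to 0.335 (median 0.221) in the Het fluoxetine group and -0.158 to 0.085 (median -0.0704) in Het vehicle. The lowest Het fluoxetine value was that of male replicate 1. In WT fluoxetine it was -0.176 to -0.0314 (median -0.101) and in Het lithium -0.196 to 0.138 (median -0.0411). WT vehicle ran from -0.16 to 0.334, with female replicate 2 at the top, and WT lithium from -0.329 (female replicate 5) to 0.659 (male replicate 5). The correlation of deviation with GC content over all genes tested moved with it, from -0.487 in WT lithium male replicate 5 and -0.356 in WT vehicle female replicate 2, through -0.315 to -0.105 in Het fluoxetine, to a highest value of 0.335 in a Het lithium library. The calls were also made with 2 further models, a GC correction and the library term.

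**Figure D3:**
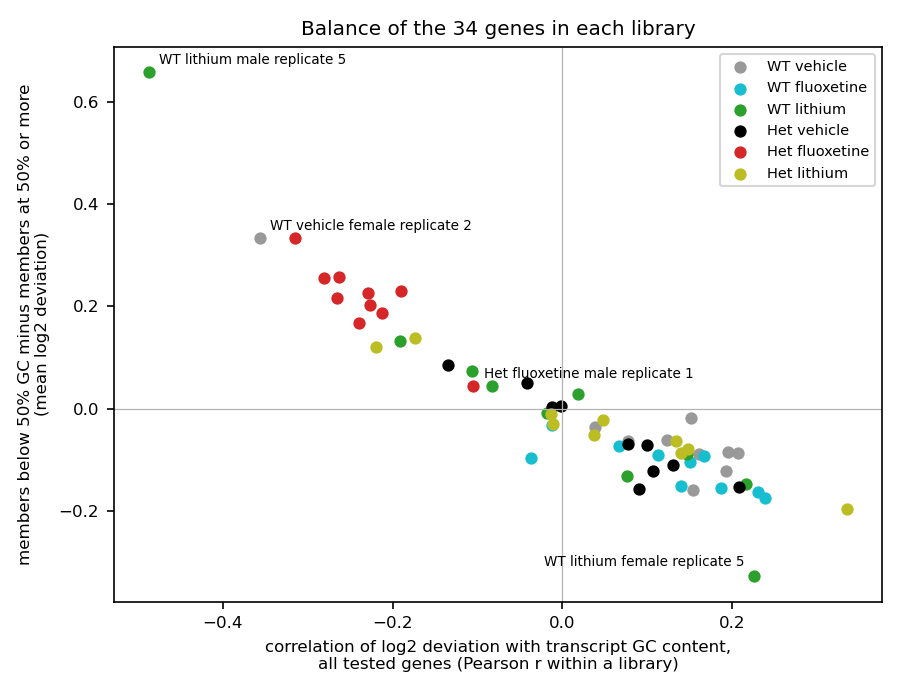
Each point is 1 of the 60 libraries, coloured by group. The horizontal axis gives the correlation of log2 deviation with GC content over all genes tested and the vertical axis the mean log2 deviation of the 14 members under 50% GC minus that of the other 20. Het fluoxetine libraries lie between 0.0436 and 0.335, and WT vehicle female replicate 2 (0.334) and WT lithium male replicate 5 (0.659) lie at or above their upper end.

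With each library corrected for its trend on GC content, 8 members were called in each comparison with Het fluoxetine libraries, namely Dlg3, Dlgap1, Dlgap2, Sipa1l1, Cnksr2 and Lrrc7 higher, and Dlg4 and Pick1 lower (percent called of all genes, 13.1% between genotypes and 19.6% for the drug). The called members kept their sign in 25 of 25 cases for the drug and in 18 of 23 between genotypes, where Dlgap4, Shank1, Shank3, Iqsec2 and Baiap2 turned to folds between 0.0036 and 0.059. With the library term, 0 members were called in either comparison (0.0393% and 0.275% of all genes). That model tells the Het fluoxetine effect from the term through Het fluoxetine male replicate 1 and WT vehicle female replicate 2, and the median SE of the members rose from 0.059 to 0.11. Of the called members, 21 of 23 between genotypes and 20 of 25 for the drug kept their sign.
Het fluoxetine male replicate 1, the library of this group with pseudogene levels like those of other groups, lay on the called side of the WT fluoxetine male mean for 20 of 23 called members and of the Het vehicle male mean for 22 of 25. Its median difference from those means, counted in the called direction, was 0.123 and 0.127 on the log2 scale, beside 0.174 to 0.24 and 0.203 to 0.232 in the other 4 males. These counts describe libraries that also entered the calls, so agreement with the called direction was partly built in. The same count was not made over all called genes. In Het fluoxetine male replicate 1 the correlation of deviation with GC content was -0.105. With this library left out of the fit the counts were 24 between genotypes (40.1% of all genes) and 25 for the drug (39.5%). As 9 of the 10 Het fluoxetine libraries share the low pseudogene levels, the drug and genotype group cannot be told apart from that property in them.

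**Figure D4:**
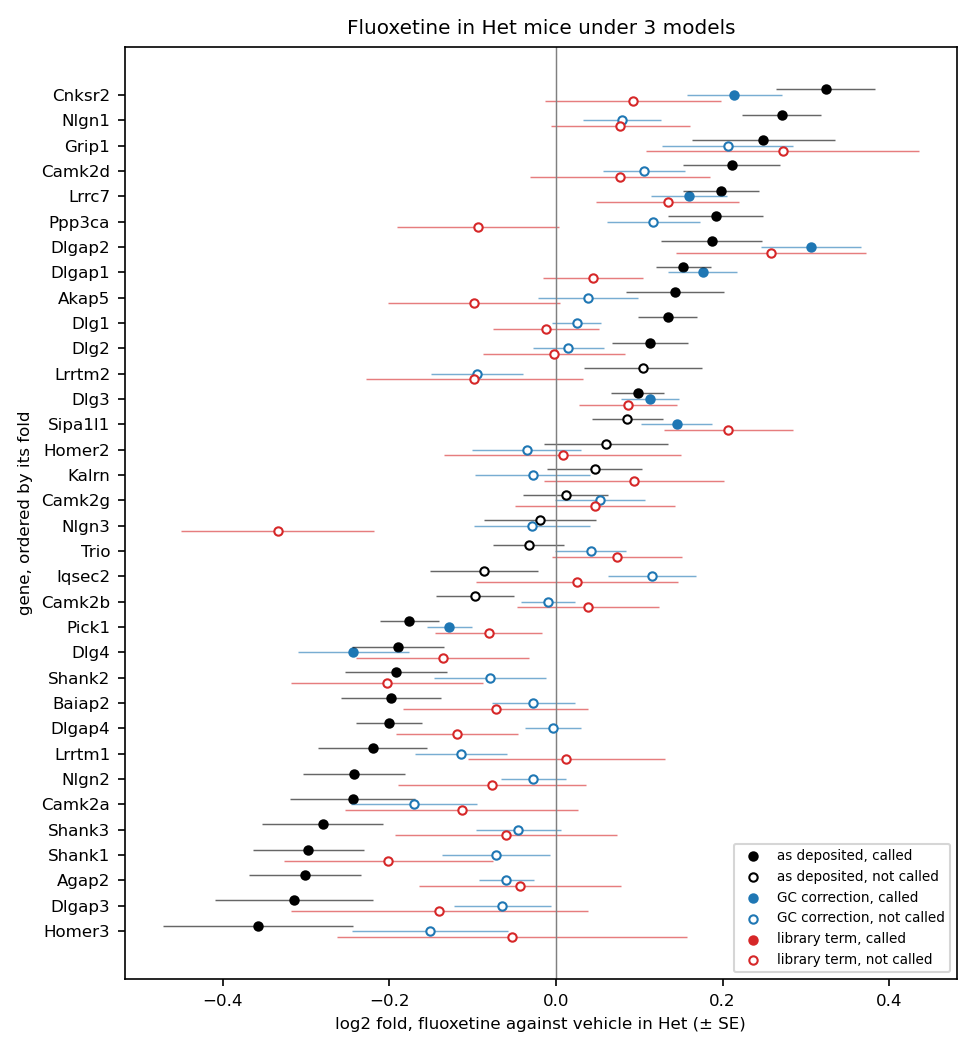
Log2 fold of fluoxetine against vehicle in Het mice (horizontal axis, ± SE) for each of the 34 genes (vertical axis, ordered by fold) with the values as deposited (black), with the GC correction (blue) and with the library term (red), and filled points for called genes. Filled points number 25 with the values as deposited, 8 with the GC correction (among them Sipa1l1, open as deposited) and 0 with the library term.

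The summed levels of neuronal markers overlapped between the groups. The summed level of 8 pan-neuronal markers was 168954 to 214271 in Het fluoxetine, 162866 to 207028 in Het vehicle and 164138 to 194424 in WT fluoxetine, and none of the listed markers was at 0. For 8 excitatory neuron markers the ranges were 51217 to 70869, 61334 to 88076 and 53059 to 75524, with 2 called lower against Het vehicle and 3 called higher against WT fluoxetine. Of the pan-neuronal markers, 2 were called higher and 1 lower against Het vehicle, and 2 higher and 2 lower against WT fluoxetine. Of 8 inhibitory neuron markers, 2 were called lower and 1 higher against Het vehicle, and 3 lower and 1 higher against WT fluoxetine (median fold -0.23). Of 7 endothelial markers, 5 were called lower against Het vehicle and 1 against WT fluoxetine. In WT mice fluoxetine also called 5 of these 7 lower against vehicle (median fold -0.28), where 8.43% of all genes were called. Of 6 oligodendrocyte precursor markers, 4 were called lower against WT fluoxetine. Of all genes tested, 39% were called against Het vehicle and 39.5% against WT fluoxetine. With the library term 0 markers of these lists were called in either comparison (0.275% and 0.0393% of all genes). The median endothelial fold against Het vehicle was -0.2 without that term and -0.289 with it. The median inhibitory neuron fold against WT fluoxetine was -0.233 without it and 0.00512 with it. The part of the marker differences in the members' results was not tested.

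Whether the response to fluoxetine differed between genotypes was tested as an interaction, which called 17 members, 7 higher and 10 lower in Het relative to WT mice (percent called of all genes, 24%, with 11.9% higher and 12% lower). Pick1 had the smallest p, with an interaction of -0.23 (SE 0.05, adjusted p = 0.00146). Nlgn1 followed at 0.29 (SE 0.07, adjusted p = 0.00185), Shank1 at -0.40 (SE 0.09, adjusted p = 0.00255) and Lrrc7 at 0.27 (SE 0.06, adjusted p = 0.00259). Agap2 (-0.39), Dlgap4 (-0.22), Cnksr2 (0.32), Camk2d (0.30), Nlgn2 (-0.31) and Dlgap1 (0.17) complete the 10 with the smallest p. The other 7 calls, of Dlg1, Dlg4, Dlgap3, Camk2a, Iqsec2, Baiap2 and Akap5, had adjusted p-values of 0.0178 to 0.0423. Of these 7, the call of Dlg4 held in 19 and that of Akap5 in 20 of the 40 fits that each left out a library. The call of Dlgap3 held in 36, that of Baiap2 in 39 and those of Dlg1, Camk2a and Iqsec2 in all 40. The GC correction gave 3 calls, of Dlgap1, Lrrc7 and Pick1 (7.46% of all genes), and the library term 0 (0.0449%).

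In WT mice, fluoxetine called 0 members (percent called of all genes, 8.43%), with 5 at an unadjusted p below 0.05, and edgeR and DESeq2 also called 0. Folds ran from -0.21 to 0.19. Iqsec2 had the smallest p, at 6877 to 8885 (median 8250) in WT fluoxetine and 6085 to 8517 (median 6982) in WT vehicle, a log2 fold of 0.19 (SE 0.06, 95% interval 0.06 to 0.32, adjusted p = 0.0606). Homer2 was at -0.21 (SE 0.07, adjusted p = 0.0702) and Dlgap2 at 0.16 (SE 0.06, adjusted p = 0.0939). The count depended on single libraries: it was 4 without WT vehicle male replicate 4 (8.94% of all genes), 2 without WT fluoxetine female replicate 5 (8.11%), and 1 without WT fluoxetine female replicate 1 (8.17%) or male replicate 5 (8.03%). It was 2 with a fit to the compared groups alone (9.09% of all genes) and 2, Homer2 and Iqsec2, with the GC correction (12.4%).

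Lithium lowered Dlg4, Agap2 and Dlgap3 and raised Trio in WT mice, the 4 members called (1 higher and 3 lower, 11.8% of the members beside 19.2% of all genes, 9.34% higher and 9.87% lower). Dlg4 was at 19007 to 31619 (median 26977) in WT lithium and 27681 to 34359 (median 31799) in WT vehicle. Its lowest value was that of male replicate 5, and 8 of 10 lithium libraries were below the vehicle mean of their sex. The log2 fold was -0.21 (SE 0.06, adjusted p = 0.00526). Agap2 ranged from 19999 to 38154 (median 33325) under lithium and 29322 to 40469 (median 38638) under vehicle, with a fold of -0.24 (SE 0.07, adjusted p = 0.00828), and Dlgap3 from 5821 to 13904 (median 11008) against 10773 to 14380 (median 13504), with a fold of -0.29 (SE 0.09, adjusted p = 0.0257).
Trio was at 6102 to 7502 (median 6849) under lithium and 5638 to 7106 (median 6316) under vehicle, a fold of 0.12 (SE 0.04, adjusted p = 0.0382), and was higher in 9 of 10 libraries. The groups overlapped for all 4. The call of Dlgap3 held in 16 and that of Trio in 10 of 20 fits without 1 library. The count was 2 without WT vehicle female replicate 4 (14.9% of all genes), 7 without WT vehicle male replicate 4 (19.9%), 0 with a fit to the compared groups alone (7.18% of all genes) and 7 with the GC correction (19.3%). Markers of several other cell types also moved under lithium in WT mice: 7 of 8 microglial, 6 of 7 endothelial, 6 of 7 pericyte and smooth muscle, 6 of 7 meningeal fibroblast and 5 of 8 astrocyte markers were called lower, while 0 of 8 pan-neuronal markers were called. The summed microglial level was 5516 to 8133 under lithium and 7986 to 9657 under vehicle. Their part in the members' results was not tested.

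In Het mice lithium called 0 members (percent called of all genes, 0.983%), with 5 at an unadjusted p below 0.05 and 0 by edgeR or DESeq2. The smallest p-values were those of Dlg3 at 0.08 (SE 0.03, adjusted p = 0.234), Trio at 0.10 (SE 0.04, adjusted p = 0.25), higher in 10 of 10 libraries, and Sipa1l1 at 0.09 (SE 0.04, adjusted p = 0.344). The GC correction called 1 member, Agap2 at -0.13 (2.12% of all genes). Between genotypes under lithium 0 members were called (0.0281% of all genes, 2 members at an unadjusted p below 0.05, 0 by edgeR or DESeq2), with Shank1 at 0.15 (SE 0.07, adjusted p = 0.387), Dlg4 at 0.11 (SE 0.06, adjusted p = 0.427) and Agap2 at 0.14 (SE 0.07, adjusted p = 0.438) first by p. The genotype by lithium interaction called 0 (0.0674% of all genes, 0 at an unadjusted p below 0.05, 0 by edgeR or DESeq2). Its smallest p-values were those of Dlgap3 at 0.22 (SE 0.13, adjusted p = 0.574), Baiap2 at -0.13 (SE 0.08, adjusted p = 0.589) and Dlg4 at 0.12 (SE 0.08, adjusted p = 0.61).

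Each of the 7 comparisons was also tested for a difference between the sexes. Members were called in 1 of them, lithium against vehicle in WT mice, where 5 differed (percent called of all genes, 9.64%). Homer3 was at 185, 220, 221, 227 and 315 in lithium females and at 102, 173, 175, 197 and 212 in lithium males, against 157 to 258 and 244 to 312 under vehicle. The female fold minus the male fold was 0.70 (adjusted p = 0.0435). Baiap2 was at 7933 to 12922 in lithium females and 6396 to 8666 in lithium males, a difference of folds of 0.39 (adjusted p = 0.0347). The other 3 differences were negative, with Lrrc7 at -0.29 (adjusted p = 0.0373), Lrrtm2 at -0.43 (adjusted p = 0.044) and Nlgn1 at -0.28 (adjusted p = 0.0471).
Within these groups, WT lithium male replicate 5 held the highest Lrrtm2 (3476), Nlgn1 (2960) and Lrrc7 (3498) and the lowest Homer3 (102) and Baiap2 (6396), and WT lithium female replicate 5 the opposite extremes of the same 5 genes. The count of 5 fell to 0 without either of these libraries, without WT vehicle female replicate 2 or without WT vehicle male replicate 2. It also fell to 0 with the GC correction (0.0393% of all genes) or a fit to the compared groups alone (0% of all genes). It was 8 without WT lithium female replicate 4 or WT vehicle female replicate 5. Shares of all genes are not given for these fits without 1 library.

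Other genes of the same structures, listed by function, were also called mainly in the Het fluoxetine comparisons. Of 44 further postsynaptic scaffold and signalling genes, 14 were called higher and 17 lower in Het than in WT mice on fluoxetine, and 15 higher and 15 lower under fluoxetine in Het mice, where 39.5% and 39% of all genes were called, with median folds of -0.0083 and -0.031 beside -0.012 and 0.0048 over all genes. Lin7a and Lin7c, which bind Dlg proteins through Cask, rose between genotypes by 0.36 and 0.38, and Caskin1, a Cask-binding scaffold, fell by 0.34 on the log2 scale. Under fluoxetine in Het mice the actin-binding drebrin gene Dbn1 fell by 0.31 on the log2 scale and the protein kinase C gene Prkca rose by 0.36. Of 36 synaptic adhesion partners, 18 were called higher and 6 lower between genotypes and 20 higher and 7 lower for the drug, with median folds of 0.13 and 0.15. The median GC content was 52.1% in the first list and 48% in the second. With the GC correction 5 and 13 of the 44 and 12 and 11 of the 36 were called between genotypes and for the drug, and with the library term 0 of either list in either comparison. Slitrk4 (0.44), Il1rapl1 (0.41) and Adgrl3 (0.23) rose between genotypes. In vehicle, 0 genes of either list were called between genotypes. In WT mice fluoxetine called Sipa1l2 (-0.28), Akap12 (-0.29) and Lrfn2 (-0.27) lower and Flrt2 (0.28) higher (8.43% of all genes). In Het mice it also called Sipa1l2 (-0.27) and Lrfn2 (-0.29) lower and Flrt2 (0.59) higher, but not Akap12. Lithium in WT mice called 9 of the 44 higher and 3 lower and 6 of the 36 higher and 0 lower (19.2% of all genes), and in Het mice 1 of the 44, Tanc2 at 0.16.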

How the data were processed

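Prefrontal cortex mRNA had been sequenced as 60 libraries with a stranded kit, per the labels' protocols. The authors deposited 1 table of gene read counts divided by a size factor per library (a normalised signal, not coverage), made with Salmon 0.11.2, DESeq2 1.19.11 and R 3.6.0 on GRCm38, per the submitters' processing notes. These notes do not state if reads were counted by strand. Steps between low values gave whole reads for 100.0% of values above 0 (tolerance 0.001) and 23901635 to 37769417 reads per library. At this depth the scarcest member, Homer3, had at least 102 normalised counts in every library. Low genes were dropped, keeping 17810 of 18088 (10 or above in 5 or more libraries), and the rest were fitted as log2(value + 1) with limma 3.58.1 in R 4.3.3 (trend, robust), with a mean for each of 12 groups, which leaves 48 residual degrees of freedom. Fold changes are on that scale, which understates those of low genes, and are averaged over the sexes. P-values were adjusted by Benjamini-Hochberg over all genes tested, with a threshold of 0.05. The GC correction subtracted from each library a loess trend (span 0.3) of its log2 deviations on transcript GC content, known for 99.94% of tested genes. The library term adds 1 coefficient for 10 libraries. edgeR 4.0.16 and DESeq2 1.42.0 were run on the recovered reads, and the fits were tested on simulated data. Gene identifiers were matched to GENCODE M21 (18077 of 18088). The members, the role groups and the marker and pathway lists were chosen with earlier results of these data known. Members were named by the rule of the 10 smallest p-values among called ones in each comparison, or the 3 smallest where none was called, and others were added by role after their values were seen. No pair of libraries held identical values. Other settings tried are another scaling, pseudocount and filter, a fit to the compared groups alone, a replicate block, and libraries left out.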

Additional observations from a re-analysis of the deposited data

Results flagged for a closer look

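Among 408 groups of 5 libraries (34 genes in 12 groups), 39 held a library whose gap to its nearest neighbour exceeded 0.71 of the whole range, where chance alone gives about 1 group in 20. WT lithium male replicate 5 accounts for 15 of these, with normalised read counts that were high for Dlg1 (6199), Dlg2 (20345), Dlgap1 (16776), Nlgn1 (2960), Ppp3ca (33469) and Lrrtm2 (3476). In the same library the counts were low for Dlg4 (19007), Dlgap4 (6633), Homer3 (102), Camk2a (65743), Camk2b (17823), Nlgn2 (5955), Agap2 (19999), Pick1 (1087) and Lrrtm1 (945). WT vehicle female replicate 2 was high for Dlg1 (5445), Nlgn1 (2647), Cnksr2 (8081) and Ppp3ca (31744) and low for Homer3 (157) and Nlgn2 (7359). The Nlgn1 and Nlgn2 values of this vehicle library lay outside 2054 to 2135 and 8949 to 9067 in the other 4 libraries of its group.

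Other libraries held 3 each. WT lithium female replicate 5 was low for Homer2 (1677), Camk2d (2743) and Sipa1l1 (10187), and Het vehicle male replicate 5 was low for Shank1 (19550), Shank3 (6821) and Camk2a (73424). The remaining single values were spread over libraries. Low ones were Dlgap1 in WT fluoxetine female replicate 1 (12974), Homer2 in WT vehicle female replicate 5 (3006), Camk2a in Het lithium female replicate 3 (74605) and male replicate 5 (83260), Nlgn2 in WT lithium female replicate 4 (7922), Nlgn3 in Het lithium female replicate 2 (3397), Sipa1l1 in Het fluoxetine male replicate 3 (10914) and Pick1 in Het vehicle female replicate 2 (1301). High ones were Dlg3 in WT fluoxetine male replicate 2 (6877), Nlgn3 in Het fluoxetine female replicate 1 (4352), Lrrc7 in Het fluoxetine male replicate 2 (3034) and Agap2 in Het fluoxetine male replicate 1 (35759, against 31068 to 31558 in the other 4 males).

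The response to fluoxetine differed between genotypes, by the interaction in limma, for 17 genes, where 24% of all genes tested were called. As given above, most of these 17 calls were lost with the GC correction and all with the library term. The Het minus WT difference of log2 folds was positive for Dlg1 (0.16), Dlgap1 (0.17), Akap5 (0.22), Lrrc7 (0.27), Nlgn1 (0.29), Camk2d (0.30) and Cnksr2 (0.32). It was negative for Dlg4 (-0.21), Dlgap4 (-0.22), Pick1 (-0.23), Baiap2 (-0.24), Iqsec2 (-0.27), Nlgn2 (-0.31), Camk2a (-0.32), Dlgap3 (-0.38), Agap2 (-0.39) and Shank1 (-0.40). The response to lithium in WT mice differed between the sexes for 5 genes, where 9.64% of all genes tested were called. Female minus male differences were 0.70 for Homer3, 0.39 for Baiap2, -0.28 for Nlgn1, -0.29 for Lrrc7 and -0.43 for Lrrtm2. As given above, none of these 5 calls remained with the GC correction or without WT lithium male replicate 5.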

How the results depend on the processing

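Counts of called genes kept within 1.5 times the values given above with TMM scaling, a pseudocount of 5, no filter on low values, and edgeR or DESeq2 on the recovered reads. The GC correction moved them to 8 (6 higher, 2 lower) for Het against WT mice on fluoxetine, 8 (6 and 2) for fluoxetine in Het mice, 2 for fluoxetine in WT mice, 7 (3 and 4) for lithium in WT mice, 1 for lithium in Het mice, 3 (2 and 1) for the genotype by fluoxetine interaction and 0 for the sex differences. Under it the log2 fold between genotypes on fluoxetine changed sign for Dlgap4 (0.0289), Shank1 (0.00362), Shank3 (0.0192), Iqsec2 (0.0585) and Baiap2 (0.0185), as did the interaction of Dlgap4 (0.0106) and the sex difference of Nlgn1 (0.0171). The library term gave 0 calls for Het against WT mice on fluoxetine, 0 for fluoxetine in Het mice, 0 for the genotype by fluoxetine interaction and 0 for the sex differences. Of all genes, 1.57% were called under it for the sex difference of lithium in WT mice. Signs changed under it between genotypes on fluoxetine for Nlgn3 (-0.148) and Akap5 (-0.0048), for the drug in Het mice for Dlg1 (-0.0118), Dlg2 (-0.00243), Akap5 (-0.0985), Ppp3ca (-0.0934) and Lrrtm1 (0.0126), and in the interaction for Dlg1 (-0.00204) and Akap5 (-0.0459). The cause was not tested in these cases. Apart from the GC correction with a replicate block, given below, no fold of a called member changed sign in any other setting run. For the marker and gene lists these 2 settings were added after seeing the data. With the GC correction 4 of the 7 endothelial markers were called lower for fluoxetine in Het mice.

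A fit to the compared groups alone, with fewer libraries behind the spread, called 2 genes for fluoxetine in WT mice (9.09% of all genes), 0 for lithium in WT mice (7.18%) and 0 for the sex differences. Without the 3 libraries with the largest residuals 2 were called for fluoxetine in WT mice (11.8% of all genes) and 0 for the sex differences. Without WT vehicle female replicate 2 and WT lithium male replicate 5, a setting chosen after seeing the data, 2 (0 higher, 2 lower) were called for lithium in WT mice (19% of all genes) and 0 for the sex differences. For the sex difference of lithium in WT mice, the shares of all genes called in these settings were, in turn, 0%, 0.00561% and 0.00561%. With 1 library left out at a time the counts ran from 22 to 24 (Het against WT on fluoxetine, 36.5% to 40.2% of all genes) and 23 to 25 (fluoxetine in Het, 35.1% to 39.5%). They ran from 0 to 4 for fluoxetine in WT (6.82% to 8.94% of all genes) and 2 to 7 for lithium in WT (14.9% to 24.1%). The counts were 13 to 20 for the interaction and 0 to 8 for the sex differences, for which shares of all genes are not given. They stayed at 0 in the other 4.

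The labels number replicates in every group, but same-numbered libraries of different groups did not deviate together (median correlation 0.000406 over 330 pairs, 16.4% above 0.1, against 18.7% of 1320 other pairs). The replicate block gave 3 calls for the sex differences (8.51% of all genes for lithium in WT mice). With the GC correction added, the counts were 8, 8, 3 (fluoxetine in WT, 12.3% of all genes), 7, 1, 3 and 0 in the order above. The folds that changed sign then had the same values as with the GC correction alone. The replicate block moved no other count by over 1.5 times.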
